A study of Mus musculus with 6 samples.

Results

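Leap2 and 8 other genes for hormones that the liver secretes into the blood were examined in the liver of Chga knockout and wild-type mice. Chga encodes chromogranin A, a protein of secretory granules from which several peptides are cut. The members were all probe sets annotated to 1 of the symbols Leap2, Fgf21, Angptl4, Ahsg, Fetub, Lect2, Rbp4, Agt or Inhbe alone, with no filter on dim signals. The rule found 10 probe sets of 22626, standing for 9 of 12393 single genes, with a pair of probe sets for Angptl4 and 1 for each of the others. The genes were chosen by their values in this comparison, on these same arrays, so their values, changes and standard errors are a description and carry no test. There were 3 Affymetrix arrays of Chga knockout liver and 3 of wild-type liver, all from male mice aged 12 weeks. The labels number the replicates but do not say whether each came from a separate animal, and they give neither the genetic background, the feeding state nor the hour of dissection, and do not say whether the arrays were run together.

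Hepatocytes release peptide and protein hormones, often called hepatokines, that report the nutritional state of the liver to brain, adipose tissue, muscle and vessels. Many of these genes are switched by fasting and feeding: Fgf21 and Angptl4 are targets of the fatty acid sensor PPAR alpha, and Fgf21 is also induced through ATF4 when amino acids are short. Others, such as Rbp4, Agt and Ahsg, encode abundant plasma proteins that carry, bind or are cut into active molecules.

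The deposited values were linear intensities in arbitrary units that had been scaled to a common level on every array, with a trimmed mean between 2501.32 and 2501.42. Pairs of arrays from 1 group had a Pearson's r of 0.933 to 0.948 across probe sets, and pairs of a knockout and a wild-type array one of 0.933 to 0.943; probe sets are not independent replicates. Changes are given as Chga knockout minus wild type in log2(intensity + 16), with the SE of a limma fit to all probe sets. A background reference was set on each array at the 95th percentile of 27 dim bacterial control probe sets, between 151 and 322. The only Chga probe set read 61.5, 44.5 and 231 in knockout arrays and 167, 185 and 42.5 in wild-type arrays, too dim to check the group labels. Of 12 hepatocyte markers 11 were measured, all in the upper 60% of probe sets by mean signal. Their summed intensity lay between 1602345 and 1876510 in knockout arrays and between 1514760 and 1686851 in wild-type arrays. The 6 cholangiocyte markers measured summed to between 777 and 1327 in knockout arrays and between 895 and 1175 in wild-type arrays.

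Leap2 encodes a small peptide that blocks the ghrelin receptor and so opposes the hunger signal of the stomach. Its probe set read 18874.5, 17063 and 17424 in Chga knockout arrays and 12025, 12374 and 12530 in wild-type arrays. Every knockout array was above every wild-type array, with a gap wider than the spread within either group. The means were 17787 ± 959 in knockout and 12310 ± 259 in wild type (SD, n = 3 each), a log2 change of 0.53 ± 0.09 (SE), or 1.44-fold. The change lay between 0.49 and 0.56 with any 1 array left out, at 0.51 after quantile normalization and at 0.54 after median centring. Leap2 was also quiet within groups: its pooled SD of 0.058 on the log2 scale was at the 8.48th percentile of 2263 probe sets of similar mean signal. In these whole-liver samples, a change in the number of cells that make a transcript and a change in the amount per cell cannot be told apart.

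Leap2 was the only member with groups that did not overlap, 1 of 10 probe sets, where 13.4% of all probe sets did not overlap in either direction, 6.82% with knockout higher and 6.59% with knockout lower. It was also the only 1 of 10 past an adjusted p of 0.05 in the limma fit with Benjamini-Hochberg adjustment, where 0.186% of all probe sets passed, made up of 0.0751% higher and 0.11% lower in knockout. Both counts use the comparison that chose the members, and nothing is read from them. Leap2 was not past that threshold with any 1 of the 6 arrays left out, with the arrays centred on their medians, without the intensity trend or with the replicate number as a block. The median change of the 10 probe sets was 0.0099, beside -0.0031 over all probe sets, and their median absolute change was 0.25, beside 0.24 over all.

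**Figure D1:**
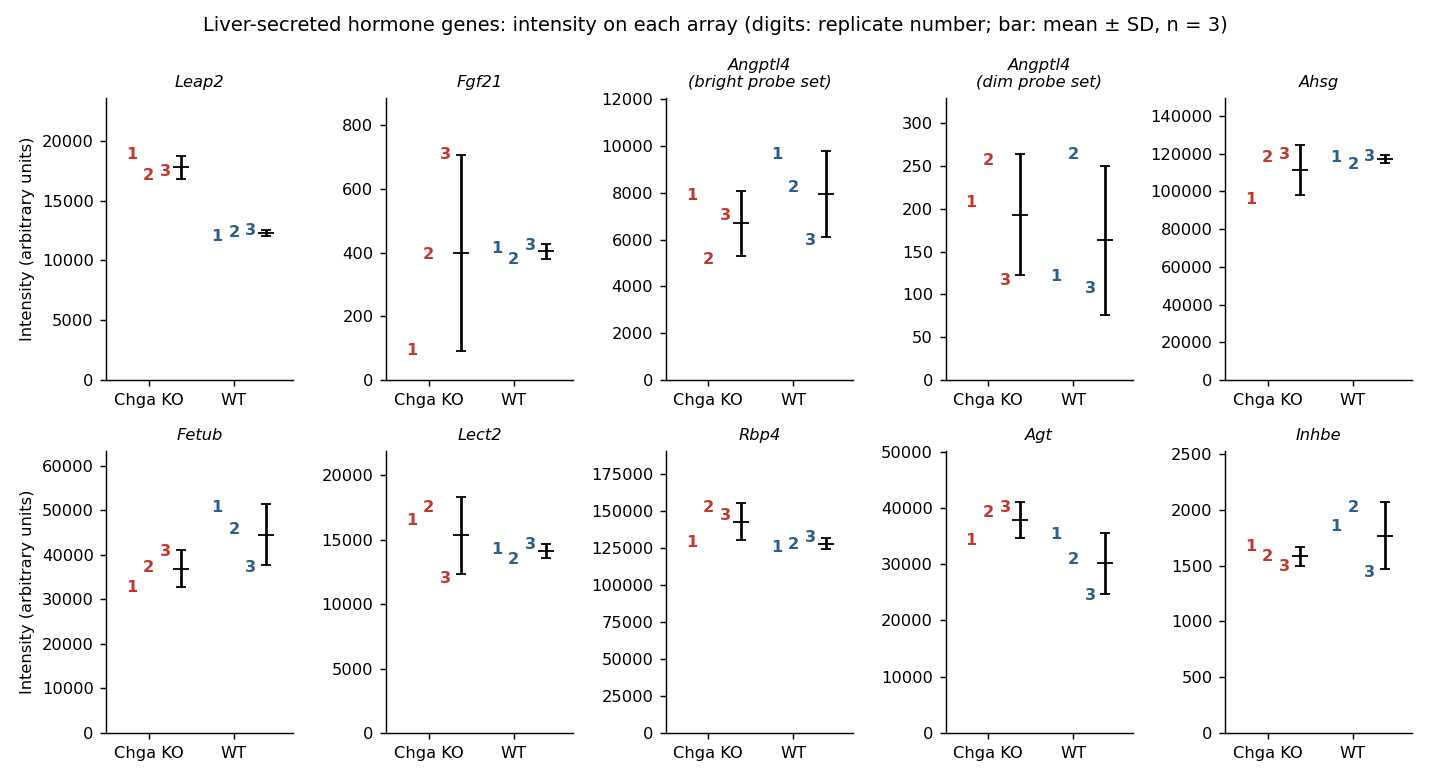
Intensity in arbitrary units (vertical axes from 0, a scale for each panel) of the 10 hormone probe sets in 3 Chga knockout and 3 wild-type arrays. Digits mark the replicate number and bars the mean ± SD. Leap2 is the only panel in which the groups are apart, and Fgf21 is spread in knockout from 91.9 to 709.

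The measured genes on either side of Leap2 on chromosome 11 had changes below 0. Uqcrq, a subunit of respiratory complex III, stood at a log2 change of -0.05 ± 0.09 and Aff4, a transcription elongation factor, at -0.20 ± 0.10 (SE), beside 0.53 ± 0.09 for Leap2. Neither neighbour passed the adjusted threshold in the limma fit, with adjusted p-values of 0.925 and 0.680. For Aff4 every knockout array was below every wild-type array, as for 6.54% of all genes.

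The genes nearest to Leap2 over the 6 arrays were found among 12466 other single-gene probe sets in the upper 60% by mean signal. Each probe set was taken as its log2 deviation from its own wild-type mean, and likeness as the root mean square difference from Leap2. The 5 nearest were Extl1, an exostosin-like glycosyltransferase, at 0.062, Hspa5, the main chaperone of the endoplasmic reticulum, at 0.062, the flavin monooxygenase gene Fmo5 at 0.071, the glutathione transferase gene Gsta3 at 0.073 and Vasn, a transmembrane protein that binds TGF-beta, at 0.074. Hspa5 read 64448, 56137 and 53636 in knockout arrays and 37588, 42890 and 40514 in wild-type arrays. Like Leap2 it was highest in knockout replicate 1. Extl1, at 858, 741 and 724 in knockout arrays and 563, 542 and 552 in wild-type arrays, was highest in knockout replicate 1 too. Below that array Leap2 was lowest in knockout replicate 2, as was Vasn, while Hspa5 and Extl1 were lowest in knockout replicate 3. Fmo5 and Gsta3 were highest in knockout replicate 3. The other probe sets of Hspa5, Fmo5, Gsta3 and Vasn had smaller changes, at 0.28, 0.41, 0.27 and 0.26. These genes were picked for the pattern, so their changes are no further evidence of it.

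**Figure D2:**
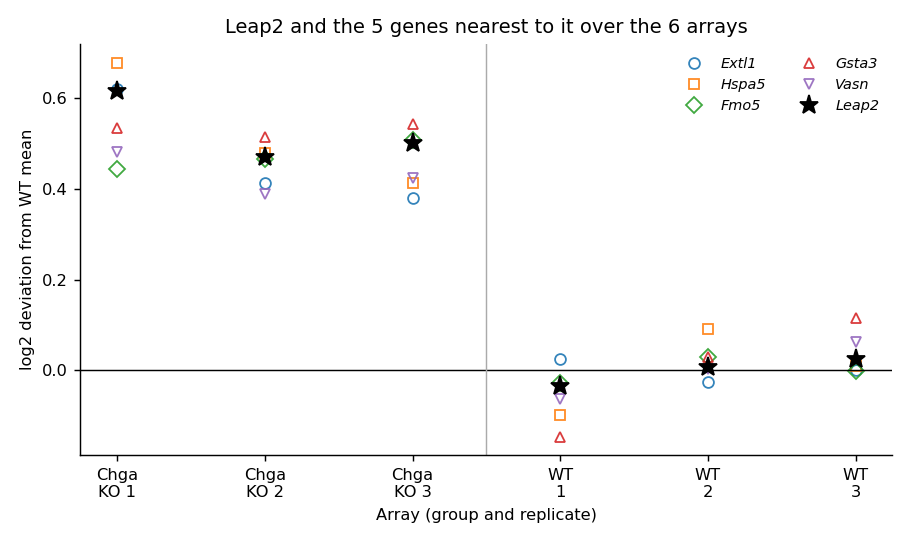
Log2 deviation from the wild-type mean (vertical axis) of Leap2, drawn as stars, and of the 5 genes nearest to it, on each Chga knockout and wild-type array (horizontal axis). Leap2 lies at 0.62, 0.47 and 0.50 in the knockout arrays and between -0.03 and 0.03 in the wild-type arrays.

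Fgf21 encodes the hormone that signals through beta-klotho (Klb) and fibroblast growth factor receptors during fasting and protein shortage. Its probe set read 91.9, 395 and 709 in Chga knockout arrays and 411, 378 and 421 in wild-type arrays. The knockout arrays lay below, within and above the wild-type range, and knockout replicate 1 was below that array's background reference of 179. The means were 399 ± 308 in knockout and 404 ± 22.7 in wild type (SD, n = 3 each), and the log2 change was -0.40 ± 0.64 (SE). It turned to 0.38 without knockout replicate 1 and was -0.99 without knockout replicate 3. The SD on the log2 scale was 1.41 in knockout and 0.079 in wild type, a ratio of 17.9 that was larger than in 99.5% of all probe sets. The knockout SD by itself was above that of 94.4% of the 2263 probe sets of similar mean signal. This spread was singled out after its values were seen.

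Inhbe encodes the subunit of activin E, a liver hormone of the TGF-beta family that acts on adipose tissue. It read 1672, 1581 and 1497 in Chga knockout arrays and 1850, 2025 and 1436 in wild-type arrays. Wild-type replicate 3 was below all 3 knockout arrays and the other wild-type arrays were above them. The means were 1584 ± 87.3 in knockout and 1770 ± 302 in wild type (SD, n = 3 each), with a log2 change of -0.15 ± 0.17 (SE). Inhbc, the next measured gene on chromosome 10 and the subunit of activin C, stood at -0.02 ± 0.19, with an adjusted p of 0.991 in the limma fit.

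Fgf21 and Inhbe are both known for their induction by amino acid shortage, and their promoters are shown because each holds the core of an amino acid response element. RefSeq promoters of build GRCm38.p6 were at hand for 7 member genes, in 9 windows reaching 250 bases before a start site. The letters TGATGCAA were searched on both strands and found in 260 of 32851 promoters of the same length, or 0.792%. Among the member windows they were in those of Fgf21 and Inhbe alone, on the other strand in each. The stretches below run from base -200 to base -101 before the start site, 5′ to 3′ on the minus strand, with the match in capitals. The Fgf21 stretch is chr7:45615591-45615690 and the Inhbe stretch chr10:127351949-127352048.
Fgf21: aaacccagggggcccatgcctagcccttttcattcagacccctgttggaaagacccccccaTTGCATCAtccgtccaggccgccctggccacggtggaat
Inhbe: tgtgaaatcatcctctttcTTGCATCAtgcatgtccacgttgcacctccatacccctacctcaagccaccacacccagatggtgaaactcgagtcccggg
The match spans bases -139 to -132 in Fgf21 and -181 to -174 in Inhbe. A TATA box, TATAAA, lay at bases -28 to -23 of Fgf21 and was found near the start of Agt, Fetub and Rbp4 as well, against 12.4% of all promoters. An E-box, CACGTG, lay at bases -50 to -45 of Fgf21 and in no other member window, against 6.02% of all promoters. The searched motifs did not overlap one another in these windows, and a match describes the letters only.

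The order of the arrays differed between these genes. Knockout replicate 1 was the lowest knockout array for Fgf21, at 91.9, and the highest for Inhbe, at 1672. In wild type, replicate 3 was the highest for Fgf21, at 421, and the lowest for Inhbe, at 1436.

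Genes of the amino acid response were measured alongside. All 24 listed genes had a probe set. By the brightest probe set of each, 0 passed an adjusted p of 0.05 in the limma fit, where 0.202% of all genes passed. At an unadjusted p under 0.05 there were 0, where 3.79% of all genes were higher and 4.37% lower. Their median change was 0.05, with 13 of 24 above 0. The median deviation of the list from its wild-type mean was -0.17, 0.09 and 0.13 in knockout arrays and 0.03, -0.0027 and -0.02 in wild-type arrays. By this median knockout replicate 1, where Fgf21 was low, was the lowest array. By the summed intensity of the list it was the highest, at 134730 against 113095 to 131503 on the other arrays. The brightest gene of the list, Cth, read 67424 on that array and 40335 to 52270 on the others. The order by sum therefore rests largely on Cth. Asns, asparagine synthetase and a standard target of ATF4, read 657, 641 and 2221 in knockout arrays and 1612, 2649 and 842 in wild-type arrays. Asns was chosen after its values were seen. Like Fgf21 its highest knockout array was replicate 3, but its wild-type arrays spread over a wide range. The list did not share this order, since replicate 3 was the lowest knockout array for Atf4, Atf3, Psat1 and Psph, among others. By the smallest p, the list was headed by Nupr1, a stress-response regulator, at 1.58 ± 0.73, with 1 of 3 knockout and 0 of 3 wild-type arrays above background, the stress sensor Sesn2 at 0.54 ± 0.29, the transcription factor Atf3 at 1.36 ± 0.75 and the pseudokinase Trib3 at -0.45 ± 0.28 (SE, adjusted p from 0.635 to 0.748).

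Angptl4 encodes an inhibitor of lipoprotein lipase that directs blood triglycerides away from tissues. Its bright probe set read 7870, 5165 and 7043 in Chga knockout arrays and 9646, 8233 and 5973 in wild-type arrays. The groups overlapped, with the lowest knockout array below all wild-type arrays and wild-type replicate 3 below the other 2 knockout arrays. The log2 change was -0.24 ± 0.19 (SE), with means of 6693 ± 1386 in knockout and 7951 ± 1852 in wild type (SD, n = 3 each). The dim probe set read 208, 256 and 116 in knockout arrays and 120, 264 and 106 in wild-type arrays. It was above the background reference in 1 array of each group and outside the upper 60% of probe sets, and its log2 change was 0.26 ± 0.59. The probe sets disagreed in sign, and their mean had a change of 0.0098.

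Other PPAR alpha targets were counted beside Angptl4 and Fgf21. Of 27 listed genes 22 were measured; 0 passed the adjusted threshold in the limma fit, while 3 reached an unadjusted p under 0.05 upward and 3 downward, where 3.79% of all genes did so upward and 4.37% downward. Their median change was 0.05, with 12 of 22 above 0. The fatty acid transporter Cd36 stood at 1.42 ± 0.26 (SE, adjusted p = 0.088), with 2787, 1719 and 3043 in knockout arrays and 855, 1240 and 697 in wild-type arrays. Ppara itself, the receptor, stood at -0.56 ± 0.13 (adjusted p = 0.187), its target Cyp4a14 at -1.01 ± 0.23 (0.178) and the carnitine palmitoyltransferase Cpt1a at -0.31 ± 0.10 (0.385). For each of these 4 genes, named for the smallest p of the list, the groups did not overlap. Over the list this held for 2 of 22 genes with knockout higher and 3 with knockout lower. Among all genes it held for 13.6%, 7.08% with knockout higher and 6.54% with knockout lower. The list's median deviation was -0.05, 0.11 and 0.10 in knockout arrays and 0.03, -0.02 and -0.04 in wild-type arrays.

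**Figure D3:**
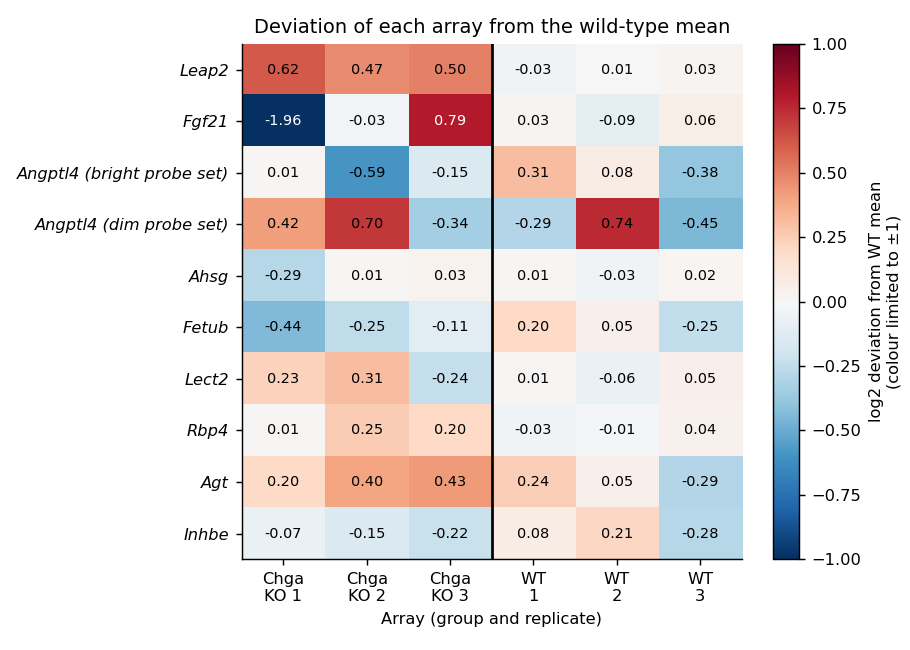
Log2 deviation of each of the 10 hormone probe sets (rows) from its wild-type mean on each array (columns, Chga knockout left of wild type). Colour runs from blue for lower to red for higher and is limited to ±1, and the number in each cell is the value. Leap2 is red in all 3 knockout arrays, and Fgf21 reads -1.96, -0.03 and 0.79 there.

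The other Angptl genes are close relatives of Angptl4. Of 6 listed, 4 were measured, and 0 passed the adjusted threshold in the limma fit. At an unadjusted p under 0.05, 1 of the 4 was higher in knockout, as were 3.79% of all genes. That 1 was Angptl8, which is induced by feeding. It read 4068, 3256 and 3449 in Chga knockout arrays and 687, 1737 and 1621 in wild-type arrays. All knockout arrays were above all wild-type arrays, with a log2 change of 1.51 ± 0.30 (SE, adjusted p = 0.100), and wild-type replicate 1 was far below the other wild-type arrays. Without that array the change was 1.08 ± 0.16. Angptl6 stood at 0.25 ± 0.18 with groups that did not overlap, Angptl7 at -0.73 ± 0.78 and Angptl1 at 0.06 ± 0.59, the last with no array above background (adjusted p from 0.780 to 0.991). The groups were thus apart for 2 of the 4, both with knockout higher, as for 7.08% of all genes.

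Agt encodes angiotensinogen, the liver precursor from which renin releases angiotensin. Its probe set read 34233, 39259 and 40137 in Chga knockout arrays and 35280, 30805 and 24397 in wild-type arrays. The groups overlapped by 1 array on each side, since wild-type replicate 1 was above knockout replicate 1. The means were 37876 ± 3186 in knockout and 30161 ± 5470 in wild type (SD, n = 3 each), a log2 change of 0.34 ± 0.13 (SE), or 1.27-fold. It was between 0.20 and 0.46 under the alternatives tried. This was the largest positive change among the members after Leap2.

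Rbp4 encodes the plasma carrier of retinol. It read 128969, 152740 and 147213 in Chga knockout arrays and 125265, 127217 and 131993 in wild-type arrays. Replicates 2 and 3 of knockout were above every wild-type array, and replicate 1 was within the wild-type range. The log2 change was 0.15 ± 0.11 (SE), and it was -0.02 after quantile normalization, so its direction depends on the scaling. Its partner Ttr, transthyretin, stood at 0.14 ± 0.11 (SE, adjusted p = 0.804).

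Genes of retinoid handling and other lipocalins were counted beside Rbp4. Of 29 listed genes 24 were measured and 0 passed the adjusted threshold in the limma fit. At an unadjusted p under 0.05, 5 were higher in knockout and 0 lower, or 5 of 24, where 3.79% of all genes were higher at that level. Cyp26a1, which breaks down retinoic acid, read 2653, 4012 and 2842 in knockout arrays and 1492, 1341 and 2320 in wild-type arrays, a change of 0.89 ± 0.22 (SE, adjusted p = 0.222). The retinol dehydrogenase Rdh11 stood at 0.84 ± 0.21 (0.234), the retinal dehydrogenase Aldh1a1 at 0.43 ± 0.11 (0.242) and the carotenoid oxygenase Bco2 at 0.99 ± 0.29 (0.321). In all 4, named for the smallest p of the list, the groups did not overlap. Over the list this held for 5 of 24 genes with knockout higher and 0 with knockout lower. Among all genes 7.08% were apart with knockout higher and 6.54% with knockout lower. The list's median was only 0.04, and it was -0.03 after quantile normalization.

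Ahsg and Fetub encode fetuin-A, which binds calcium phosphate and inhibits the insulin receptor, and fetuin-B, an inhibitor of the egg protease ovastacin. They lie next to each other on chromosome 16. Ahsg read 95843, 118227 and 119664 in Chga knockout arrays and 118076, 114524 and 118606 in wild-type arrays. Apart from knockout replicate 1, all arrays lay within a narrow range, and the log2 change was -0.08 ± 0.12 (SE), or 0.02 without that array. After quantile normalization Ahsg was at -0.18 and its groups did not overlap.

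Fetub read 32552, 37089 and 40796 in Chga knockout arrays and 50626, 45704 and 37127 in wild-type arrays. Wild-type replicate 3 was below knockout replicate 3 and just above knockout replicate 2, while the other wild-type arrays were above all knockout arrays. The means were 36813 ± 4129 in knockout and 44485 ± 6832 in wild type (SD, n = 3 each), a log2 change of -0.27 ± 0.13 (SE), with the same sign under every alternative tried (-0.39 to -0.17). Knockout replicate 1 was the lowest knockout array for both fetuins. In wild type the order differed, with replicate 3 highest for Ahsg and lowest for Fetub.

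The other cystatin superfamily genes include the neighbours of the fetuins. Of 8 listed 6 were measured, with 0 past the adjusted threshold in the limma fit. At an unadjusted p under 0.05 there were 0, where 3.79% of all genes were higher and 4.37% lower. The histidine-rich glycoprotein gene Hrg, next after Fetub, stood at 0.10 ± 0.13, and Kng1, the kininogen gene beyond it, at -0.03 ± 0.11 (SE). The protease inhibitor genes Cstb, Cst7 and Cst6 were at 0.11 ± 0.08, -0.86 ± 0.69 and -0.67 ± 0.59, with Cst7 above background in 1 of 6 arrays and Cst6 in 0. Adjusted p-values of the 5 genes lay between 0.791 and 0.972.

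Lect2 encodes a leukocyte chemotaxin that hepatocytes release into the blood. It read 16521, 17517 and 11962 in Chga knockout arrays and 14217, 13500 and 14632 in wild-type arrays. The knockout arrays lay on both sides of the wild-type range. The means were 15333 ± 2962 in knockout and 14116 ± 573 in wild type (SD, n = 3 each), with a log2 change of 0.10 ± 0.13 (SE) that was -0.0052 without knockout replicate 2. The SD of the intensities was wider in knockout than in wild type for Lect2, as for Leap2, Fgf21, Ahsg and Rbp4, and narrower in knockout for Agt, Inhbe, Fetub and both Angptl4 probe sets. These differences in spread were not tested.

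**Figure D4:**
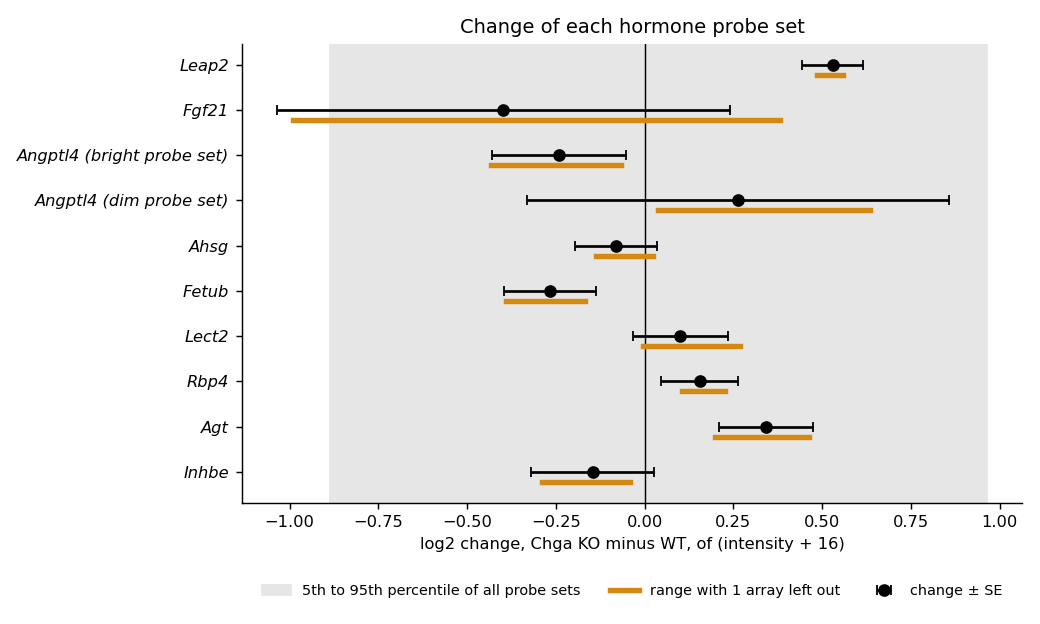
Log2 change, Chga knockout minus wild type, of each hormone probe set (horizontal axis), with points for the change, black bars for the SE and orange bars for the range with 1 array left out. The grey band holds the 5th to 95th percentile of all probe sets, from -0.89 to 0.96. All 10 points lie inside the band, and the orange bars of Fgf21, Ahsg and Lect2 cross 0.

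Some arrays were at the edge of their group for several members. Wild-type replicate 3 was the lowest wild-type array for 4 of 9 genes (Fetub, Agt, Angptl4 and Inhbe, by the bright probe set) and the highest for the other 5. Without wild-type replicate 3 the groups did not overlap for 5 of 10 probe sets, Leap2 and Rbp4 higher and Angptl4, Fetub and Inhbe lower in knockout, beside 24.2% of all probe sets with that array left out. Knockout replicate 1 was the lowest knockout array for 5 of 9 genes (Rbp4, Ahsg, Fetub, Agt and Fgf21). Without it the groups did not overlap for 3, Leap2, Rbp4 and Agt, beside 26.8% of all probe sets. Without knockout replicate 3 they did not overlap for Leap2, Lect2 and Fetub, beside 23.5% of all probe sets, and without wild-type replicate 1 for Leap2 and Agt, beside 23.1%.

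Beyond the members, 29 further genes for liver-secreted hormones and proteins were listed and 23 were measured. Of these 0 passed the adjusted threshold in the limma fit. At an unadjusted p under 0.05, 3 were higher and 4 lower in knockout, where 3.79% of all genes were higher and 4.37% lower. Their median change was 0.08, with 13 of 23 above 0, and -0.04 after quantile normalization. The groups did not overlap for 3 of the 23 with knockout higher and 2 with knockout lower. Among all genes 7.08% and 6.54% did so. Igfbp2, a binding protein of insulin-like growth factors, read 10738, 12955 and 16958 in Chga knockout arrays and 30103, 23144 and 21705 in wild-type arrays. Every knockout array was below every wild-type array, with a log2 change of -0.89 ± 0.17 (SE, adjusted p = 0.088), which passed without knockout replicate 3 (-1.07 ± 0.15, adjusted p = 0.0331). Igfbp1, its relative that insulin represses, stood at -1.60 ± 0.54 (0.443) with overlapping groups, and Gpld1, a circulating phospholipase, at 0.31 ± 0.10 (0.424). Angptl8, described above, was the second of the list by p. Lcn13 was measured under its current symbol Obp2a.

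Receptors, partners and processing enzymes of the members were listed as well. Of 42 genes 32 were measured, and 0 passed the adjusted threshold in the limma fit. At an unadjusted p under 0.05, 2 were higher and 1 lower, where 3.79% of all genes were higher and 4.37% lower. Their median change was 0.10, with 20 of 32 above 0. Lpl, the lipase that Angptl4 inhibits, stood at -1.01 ± 0.33 (SE, adjusted p = 0.423), with its other probe set at -1.61, and the groups overlapped. Enpep, an aminopeptidase that trims angiotensin, was at 0.38 ± 0.15 (0.562), and Acvr2b, an activin receptor, at 0.88 ± 0.39 (0.618), with every knockout array above every wild-type array. Met, a receptor bound by Lect2, was at -0.43 ± 0.21 (0.672). It read 1173, 1155 and 1165 in knockout arrays and 1938, 1693 and 1179 in wild-type arrays. Every knockout array was below every wild-type array, but wild-type replicate 3 was barely above knockout replicate 1. Over the list the groups did not overlap for 1 of 32 genes with knockout higher and 2 with knockout lower. Among all genes 7.08% and 6.54% did so.

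**Figure D5:**
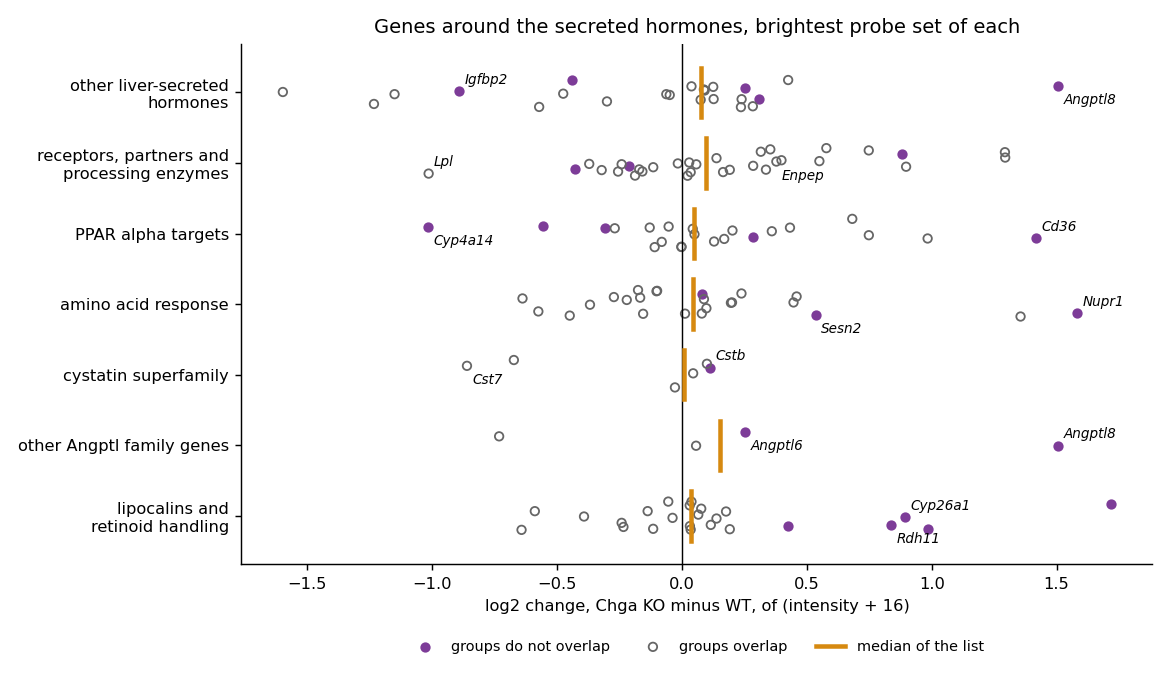
Log2 change, Chga knockout minus wild type, of the genes of 7 lists around the secreted hormones (horizontal axis), each gene by its brightest probe set. Filled points are genes whose groups do not overlap, open points genes whose groups do, and orange lines the list medians, which lie between 0.0090 and 0.15, and between -0.08 and 0.13 after quantile normalization, where those of the other hormones, the cystatin and the lipocalin lists are below 0.

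Markers of other cells in the liver stood as follows beside these values. The 11 stellate cell and matrix markers measured had a median change of -0.45, with 1 of 11 above 0 and summed intensities of 22418 to 26986 in Chga knockout arrays and 25922 to 34373 in wild-type arrays. The 12 Kupffer cell and macrophage markers had a median of -0.23, with 2 of 12 above 0 and sums of 20675 to 32709 in knockout arrays and 25954 to 34365 in wild-type arrays. Hepatocyte markers had a median of 0.12, with 11 of 11 above 0, and of 0.0014, with 6 of 11 above 0, after quantile normalization. No marker of these 3 lists passed the adjusted threshold in the limma fit. At an unadjusted p under 0.05 there were 3, all matrix or stellate genes and all lower in knockout, where 4.37% of all genes were lower. The 7 lymphocyte and neutrophil markers had a median of 0.68, with 5 of 7 above 0 and sums of 1881 to 2419 in knockout arrays and 1340 to 1614 in wild-type arrays. These are mostly dim signals, with 2 of 7 in the upper 60% of probe sets by mean signal. The median is that of Cd3e, at 0.68 ± 0.57 (SE), which was above background in 1 array of each group. The 8 pancreas markers had a median of 0.08, with 4 of 8 above 0 and sums of 7020 to 9982 in knockout arrays and 10043 to 12602 in wild-type arrays. Most of that sum was the elastase gene Cela1, with a mean of 6465 in knockout and 9424 in wild type. Of the 8 pancreas markers, 4 were at or below the background reference on all arrays. The sum therefore mostly follows 1 gene and does not measure pancreatic tissue. The 5 adipose markers had a median of -0.02 (0.02 after quantile normalization), with 2 of 5 above 0 and sums of 188947 to 217362 in knockout arrays and 165866 to 185432 in wild-type arrays. Most of that sum was the carbonic anhydrase gene Car3, with a mean of 200480 in knockout and 171970 in wild type. That is about as bright as the hepatocyte marker Alb, at 197460 and 173400, so the sum does not measure adipose tissue. Of the other 4, only Fabp4 was in the upper 60% by mean signal, at -0.02 ± 0.46 (SE). The part of these markers in the hormone values was not tested.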

How the data were processed

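The deposited table holds the authors' linear probe set intensity values for 6 liver arrays, processed with GCOS 1.2 per the submitters' processing notes; sources used here do not give the scaling rule. Of 22690 probe sets, 64 controls were left out. The platform annotation named 1 gene for 20380 probe sets, several for 691 and none for 1555, with symbols updated through the RefSeq table of GRCm38.p6. All 22626 probe sets were transformed to log2(intensity + 16). R 4.3.3 ran limma 3.58.1 on them (lmFit, then eBayes with an intensity trend, no covariate), with Benjamini-Hochberg adjustment; the fit was tested on simulated data. SDs are over 3 arrays. Nothing says how the replicates were taken, so p-values reflect the variation among these arrays, which may be technical. List genes were taken at their brightest probe set. Named were those past the threshold, then the smallest p up to 4 a list. Some were named outside this rule, among them Asns, Cth, Kng1 and Ttr. Members and lists were chosen with earlier results of these data known, and the background reference and the gap between Fgf21 spreads were defined after the values were seen. The number of arrays limits the precision. Alternatives were pseudocounts of 1 and 64, quantile normalization, median centring, the upper 60% by mean, no trend, the replicate number as a block, other probe set rules and each array left out.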

Additional observations from a re-analysis of the deposited data

How the results depend on the processing

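Over all probe sets 42 passed, 17 higher and 25 lower in knockout, and this count was 0 without the intensity trend (0 of the members) and between 14 and 40 with each array left out, lowest without wild-type replicate 1 (14) or 3 (15) and at 23 without knockout replicate 2. Of 131 member changes under the alternatives, 5 had the other sign (Ahsg, Angptl4, Fgf21, Lect2 and Rbp4, 1 each). All but Rbp4 after quantile normalization, at -0.02 beside 0.15, or 130, were within 1 pooled SD of the reported value. Most of these could not have come out otherwise, so nothing is read from that count. Leaving out 1 array from a group of 3 cannot move a change by a full pooled SD. Dropping the trend, adding the block or filtering by mean signal leaves the change itself as it was. The number of members with groups apart was 2 after quantile normalization, beside 13.5% of all probe sets, and between 1 and 5 with each array left out, beside 22.1% to 26.8%. Among the other liver-secreted hormones the calls were between 0 and 1 with each array left out, Igfbp2 without knockout replicate 3; the other lists stayed at 0. No pairing by replicate number was seen. Deviations of same-numbered arrays correlated between -0.065 and -0.059, and those of other-numbered arrays between -0.020 and 0.076. Centring within groups of 3 ties these values to one another, so they cannot exclude a pairing. With the replicate block 30 probe sets passed, with no member. Dim signals limit the dim Angptl4 probe set and Fgf21. The cause of these differences was not tested.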
